A study of Mus musculus with 10 samples.

Results

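Transcript levels in mouse lung 32 weeks after irradiation of the thorax, the last time sampled, were compared with those of unirradiated lung. The study set out to follow genes of DNA damage, inflammation, senescence and fibrosis while lung fibrosis developed. The comparison rests on 2 of the 10 RNA sequencing libraries, the irradiated pool of 32 weeks and its control of the same time, taken by their labels, and the other 4 control pools enter in 2 ways. In the test that gave calls they are averaged with the 32-week control, so they set the fold as well as the spread, and in the test against the 32-week control alone they give only the spread. Each library was made from the pooled RNA of 3 C57BL/6J mice, an inbred laboratory strain, taken from suspensions of whole lung cells. Irradiated mice had received 12.5 Gy of γ-rays to the whole thorax and age-matched controls 0 Gy. There was 1 pool for each treatment and time (24 hours and 1, 4, 12 and 32 weeks), so no replicate pool exists at 32 weeks, and the mice's age and sex are not stated in the labels. In such bulk samples, fewer cells of a type in the lung, fewer recovered in the suspension and less RNA per cell cannot be told apart.

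Radiation to the chest kills dividing cells and damages the alveolar epithelium and the capillaries, and months later scar tissue rich in collagen can form. The alveolus is lined by flat type 1 cells for gas exchange and by cuboidal type 2 cells, which secrete surfactant and replace lost type 1 cells. Macrophages clear debris and surfactant lipid, fibroblasts lay down collagen and elastic fibre, and mast cells store proteases in granules.

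Of 45786 genes in the tables, 15625 had enough counts to be tested. The control libraries held 8679551 to 17325099 fragments and the irradiated 32-week library 14145614. Lung markers were present at high level in both 32-week pools, with the surfactant gene Sftpc at 18433 CPM, the usual unit of counts relative to the library total, in the control and 5883 in the irradiated pool, and the club cell gene Scgb1a1 at 9439.6 and 15053 CPM. Levels below are CPM after scaling by library composition. A principal component analysis took the 15625 tested genes in all 10 libraries. On its first component, with 26.6% of the variance, the controls lay at −24.7, −12.1, 4.95, 10.85 and 19.52 in order of time. The irradiated pools lay at −58.69, −32.24, 12.39, 24.29 and 55.74. Both series rose with time along this component, and the highest control was the 32-week control. That control also had the smallest share of haemoglobin counts, 0.804% against 1.88% to 6.67% in the other controls and 2.10% in the irradiated pool, and the largest mitochondrial share, 2.16% against 1.48% to 1.69% and 1.15%. Their part in the results was not tested.

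Against the 5 controls, 126 genes changed, 0.806% of those tested. Among them 87 were higher (0.557%) and 39 lower (0.25%) with edgeR's quasi-likelihood test at a Benjamini-Hochberg adjusted p of 0.05, and at an unadjusted p under 0.05 there were 1419 higher (9.08%) and 1127 lower (7.21%). The spread in that test comes from controls of 5 ages, and the lone irradiated pool is assumed to vary like them. Against the 32-week control alone, with the other 4 controls giving only the spread, 0 genes passed (0% in either direction, smallest adjusted p = 0.0718). In that comparison 1236 genes (7.91%) were higher and 1029 lower (6.59%) at an unadjusted p under 0.05, and DESeq2 called 355. The 32-week control differed from the other 4 in 0 genes (smallest adjusted p = 0.127), with 451 higher (2.89%) and 616 lower (3.94%) at an unadjusted p under 0.05. Lying outside the 5 controls was common in itself, since 24.8% of tested genes were above all 5 and 24% below, 48.8% in either direction. Counts of list members above or below all controls, given below, are to be read against these shares. At least 2-fold above the 32-week control were 8.29% of tested genes, and as far below it 8.02%. The median log2 fold of all genes against the 32-week control was 0.02, scaling by library totals in place of composition moved it to −0.15, and folds are read relative to this shift. That scaling left 65 calls against the 5 controls, 36 higher and 29 lower.

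The number of calls depended on single controls. Without the 1-week control 8 genes passed, without the 24-hour control 42, without the 12-week control 80, without the 32-week control 113 and without the 4-week control 300. The 8 genes that passed whichever control was left out were Tpsb2, Acp5, Mfge8, Abca8a, Fbln1 and the antibody segments Ighv10-3, Igkv8-19 and Igkv8-27. Every other call below was thus lost without at least the 1-week control, and the adjusted p-values that then missed the threshold stand at the end of each group, each with the control left out. Folds against the 32-week control are given for size, since no gene passed in that comparison.

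**Figure D1:**
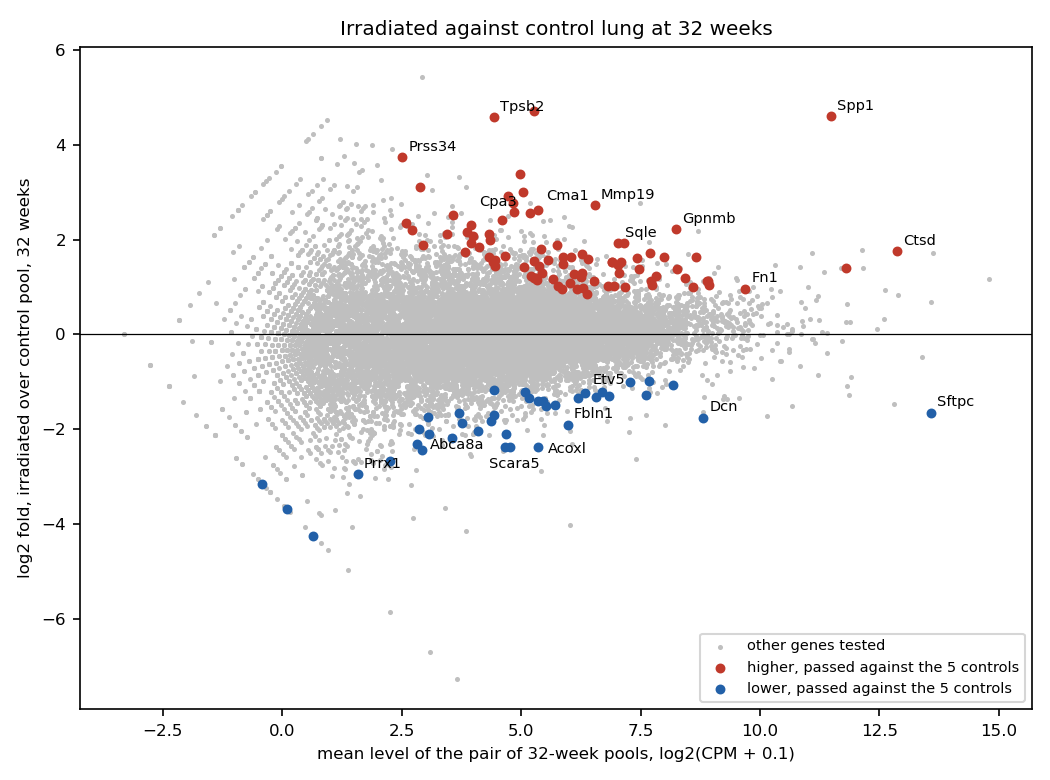
Each point is 1 of the 15625 genes tested, placed by its mean log2 level in the pair of 32-week pools (horizontal) and by the log2 fold of the irradiated over the control pool (vertical). Red points are the 87 genes higher and blue points the 39 genes lower against the 5 controls, and Spp1 stands alone at high level with a log2 fold of 4.60.

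Spp1 rose more than any other tested gene that reached 100 CPM and passed. It encodes osteopontin, a secreted matrix protein that macrophages make in injured lung. Spp1 (ENSMUSG00000029304.12, chromosome 5, 104435118 to 104441050, plus strand, GRCm38) stood at 278, 244, 172, 626 and 226 CPM in the controls of 24 hours and 1, 4, 12 and 32 weeks, and at 5484 CPM in the irradiated 32-week pool (log2 4.15 ± 0.49, adjusted p = 0.0187). Every control lay far below the irradiated pool, and the 12-week control was the highest of them. As FPKM, a level per length of transcript, Spp1 went from 84.1 to 2468. Its fold over the control of the same time was 24.2 at 32 weeks, beside 0.937, 0.728, 2.37 and 1.25 at 24 hours and 1, 4 and 12 weeks.

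Some other genes of macrophages that handle lipid rose too. On the list of lipid-associated macrophage markers, 5 of 22 tested members rose and 0 fell. Trem2, a lipid-sensing receptor, stood at 19.9, 21.5, 18.1, 30.2 and 22.8 CPM in the 5 controls in order of time and at 84.1 in the irradiated pool (log2 1.90 ± 0.24, adjusted p = 0.0146). Gpnmb, a membrane glycoprotein of phagocytes, stood at 75.2 to 216 CPM in controls and at 494 in the irradiated pool (log2 1.90 ± 0.36, adjusted p = 0.0489). Acp5, the tartrate-resistant acid phosphatase, was steady in controls at 96.4 to 119 CPM and reached 316 (log2 1.54 ± 0.16, adjusted p = 0.01). Ctsd, the aspartic protease of lysosomes, rose to 11462 from controls at 2678 to 4879 CPM (log2 1.64 ± 0.26, adjusted p = 0.0294). In all, 17 members lay above all controls and 1 below, with a median log2 fold of 0.85 against the 32-week control, where that of all genes was 0.02.

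Not all macrophage genes moved alike. Msr1, a scavenger receptor, rose to 86.3 from controls at 20.3 to 40.5 CPM (log2 1.43 ± 0.28, adjusted p = 0.0495) and was the only monocyte or interstitial macrophage marker of 27 tested that passed. Mfge8, a bridge by which phagocytes bind dying cells, rose to 385 from controls at 100.3 to 139.9 CPM (adjusted p = 0.0104). Of 21 alveolar macrophage markers none passed, while 13 (61.9%) were above and 5 (23.8%) below all controls, against 24.8% and 24% of all genes. Among them the chitinase-like gene Chil3 stood at 19401 CPM against 5894 to 13162 in controls (adjusted p = 0.156), and the receptor gene Marco at 149 against 88.1 to 169.9. Apoe, a lipoprotein gene on the lipid-associated list, was within its control range at 1332 CPM against 768 to 1571. Calls lost without 1 control, with their adjusted p, were those of Spp1 (24-hour 0.0553, 1-week 0.0642), Trem2 (1-week 0.0672), Gpnmb (24-hour 0.0972, 1-week 0.117, 32-week 0.0694), Ctsd (24-hour 0.0551, 1-week 0.0897) and Msr1 (24-hour 0.0788, 1-week 0.108, 12-week 0.0564, 32-week 0.0694).

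Of 43 tested genes of the lysosome, the acidic compartment that digests what cells take up, 6 rose against the 5 controls. The list was written after the calls were seen, so its count is a description: 0 fell, 34 lay above all controls and 0 below, with a median log2 fold of 0.73 against the 32-week control. Psap, the precursor of the saposins that help degrade sphingolipids, stood at 2346, 2101, 2178, 2301 and 1947 CPM in the 5 controls and 5158 in the irradiated pool (log2 1.25 ± 0.18, adjusted p = 0.0187). Of the 6, Ctsd and Acp5 are also on the lipid-associated macrophage list and are given above. Lipa, the acid lipase that frees cholesterol from its esters, stood at 660.2 against 309.9 to 368 CPM. The chloride-proton exchanger Clcn7 reached 127 against 46.2 to 65.5 CPM, and the proton pump subunit Tcirg1 151 against 62.8 to 78.3 CPM. Adjusted p-values were 0.0353, 0.0417 and 0.0277 for these 3. Calls lost without a control were those of Psap (1-week 0.0838), Lipa (24-hour 0.0593, 1-week 0.0897, 12-week 0.0507), Clcn7 (24-hour 0.0635, 1-week 0.0897, 12-week 0.0594, 32-week 0.0555) and Tcirg1 (1-week 0.0894).

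Proteases and matrix proteins linked to tissue remodelling were unequal. Mmp19, a matrix metalloproteinase, stood at 31.1, 27.3, 26.7, 56.8 and 24.2 CPM in controls and 161 in the irradiated pool (log2 2.28 ± 0.34, adjusted p = 0.025), 6.64-fold above the 32-week control. Mmp12, the elastase of macrophages, reached 312 CPM against 45.3 in the 32-week control, but the 12-week control already held 161 CPM and the test was missed (adjusted p = 0.312). The same held for Ctsk, the cathepsin that cleaves collagen, with 681 CPM against 115 to 388 (adjusted p = 0.136). Timp3, a metalloproteinase inhibitor bound to matrix, fell to 138 from controls at 272 to 372 CPM (log2 −1.23 ± 0.22, adjusted p = 0.043). Of the 28 protease and inhibitor genes tested, Mmp19 alone rose and Timp3 alone fell. Above all controls were 13 (46.4%) and below 8 (28.6%), where 24.8% and 24% of all genes were. Leaving out a control ended the call of Mmp19 (1-week 0.0894) and Timp3 (24-hour 0.0736, 1-week 0.1, 12-week 0.0579).

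Some genes of cholesterol synthesis rose. Animal cells make cholesterol in a chain of steps whose genes share the transcription factor SREBP2, which binds sterol response elements. Of 24 tested genes of fatty acid and cholesterol synthesis, 5 rose, 0 fell, 16 lay above all controls and 3 below, with a median log2 fold of 0.51 against the 32-week control. Squalene epoxidase (Sqle), which prepares squalene for closure into the sterol rings, stood at 70.4, 74.7, 68.1, 90.8 and 54.3 CPM in controls and 208 in the irradiated pool (log2 1.53 ± 0.22, adjusted p = 0.0187). Hmgcs1, the synthase that forms HMG-CoA, went to 189 from controls at 77.1 to 103 CPM (log2 1.10 ± 0.18, adjusted p = 0.033), and Cyp51, a demethylase of lanosterol, to 177 from controls at 61.1 to 91.7 CPM (log2 1.23 ± 0.21, adjusted p = 0.0367). Mvd, a decarboxylase of the mevalonate branch, rose to 73.1 from controls at 26.6 to 38.4 CPM (log2 1.14 ± 0.21, adjusted p = 0.047). The 32-week control was the lowest control for Sqle, Hmgcs1 and Cyp51, where its folds were 3.81, 2.45 and 2.9, but not for Mvd. Lss, which closes the rings, and Fdps, of the farnesyl branch point, were 52.4 and 237 CPM against 11.4 to 30.03 and 88.4 to 145 in controls without passing (adjusted p = 0.128 and 0.0688). Genes of fatty acid synthesis were mixed and none passed. Acly, which supplies acetyl-CoA, was above its controls at 449.8 against 331 to 440.0 CPM and the desaturase Scd2 at 198 against 133 to 188, Fasn, Scd1 and Elovl5 lay within their control ranges, and Elovl1 and Elovl6 lay below theirs. The carboxylase Acaca was also below its controls, at 9.35 against 17.7 to 35.2 CPM (adjusted p = 0.0807). Without the control named, the call was lost for Sqle (1-week 0.0687), Hmgcs1 (1-week 0.0897, 12-week 0.055), Cyp51 (24-hour 0.0649, 1-week 0.0672, 12-week 0.0564) and Mvd (24-hour 0.0818, 1-week 0.0897, 12-week 0.0638, 32-week 0.0556).

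To show promoters of genes in these groups, RefSeq windows (GRCm38.p6) of 300 bases around the start site were used, 250 before and 50 after. Both strands were searched for a sterol response element, TCACNCCAC, and for the CLEAR type of E-box, TCACGTGA, bound by the lysosomal regulator TFEB. The motifs were chosen after the groups had been seen. The sterol motif occurred in 388 of 27025 genes with a window (1.44%) and in 1 of 16 listed fatty acid and cholesterol genes with one. Among the 5 of these that rose, 3 had a window and 1 the motif (Hmgcs1). The same motif occurred in 1 of 34 listed lysosome genes with a window and in 1 of the 6 that rose. The E-box occurred in 304 of 27025 genes (1.12%) and in 6 of 34 listed lysosome genes with a window (17.6%). It was in 2 of the 6 that rose, Ctsd and Clcn7, and in 0 of the 16 listed fatty acid and cholesterol genes. The 2 stretches of 150 bases just before the start site that hold a match are printed 5′ to 3′ on the gene's strand, with the match in capitals: Hmgcs1 at chr13:119690201-119690350, plus strand, with the match starting 137 bases before the start, and Ctsd at chr7:142387828-142387977, minus strand, 99 bases before it. A match describes the letters and shows no binding.
Hmgcs1: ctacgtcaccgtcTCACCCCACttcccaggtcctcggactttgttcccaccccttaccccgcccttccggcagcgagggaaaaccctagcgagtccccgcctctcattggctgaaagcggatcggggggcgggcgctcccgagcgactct
Ctsd: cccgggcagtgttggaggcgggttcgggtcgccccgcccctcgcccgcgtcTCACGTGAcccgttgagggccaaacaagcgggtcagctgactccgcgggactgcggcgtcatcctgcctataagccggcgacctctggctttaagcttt

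Mast cell genes were among the largest rises. Tpsb2 (ENSMUSG00000033825.9, chromosome 17, 25366305 to 25369098, plus strand), a tryptase of mast cell granules, stood at 2.9, 3.26, 0.868, 2.36 and 1.56 CPM in the 5 controls and at 41.1 in the irradiated pool (log2 4.22 ± 0.43, adjusted p = 0.01). Cma1, the chymase, stood at 16.9, 16.7, 10.3, 17.4 and 11.2 CPM in controls and 69.7 in the irradiated pool (log2 2.26 ± 0.28, adjusted p = 0.0146). Cpa3, the mast cell carboxypeptidase, went to 61.8 from controls at 6.42 to 13.8 CPM (log2 2.81 ± 0.35, adjusted p = 0.0146), and Mcpt4, a further chymase, to 13.2 from controls at 0.0845 to 1.38 CPM (log2 4.27 ± 0.67, adjusted p = 0.0294). In each of the 4 the irradiated pool was clear of every control, by 23.9-, 6.15-, 5.93- and 8.66-fold against the 32-week control. At 12 weeks the irradiated pool held 16.5 CPM of Tpsb2, 32.5 of Cma1 and 26 of Cpa3, between its controls and the 32-week level.

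These 4 were the members that passed of 14 tested mast cell, basophil and eosinophil markers, of which 8 were above and 1 below all controls. The IgE receptor chains Fcer1a and Ms4a2 stood at 10.6 and 4.68 CPM, above 1.65 to 5.15 and 0.827 to 3.38 in controls, without passing (adjusted p = 0.154 and 0.303). The growth factor receptor Kit, which endothelium also expresses, was below its controls at 29 against 33.2 to 62.1 CPM. Prss34, a protease of basophils and mast cells that was not on the list, rose to 10.6 from controls at 0.643 to 1.77 CPM (log2 3.14 ± 0.49, adjusted p = 0.0277). The eosinophil peroxidase Epx was at 0 in both 32-week pools, where a count of 0 allows up to 3 counts in a library, for counting error only. Tpsab1, a tryptase gene related to Tpsb2, was at 0 in the 32-week control and at 0.153 CPM in the irradiated pool. No control held more than 0.174 CPM of it. Nothing states how the counting treated reads shared by related genes. The call was lost, without the control named, for Cma1 (1-week 0.0642), Cpa3 (1-week 0.0642), Mcpt4 (24-hour 0.0537, 1-week 0.0897) and Prss34 (1-week 0.0897).

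**Figure D2:**
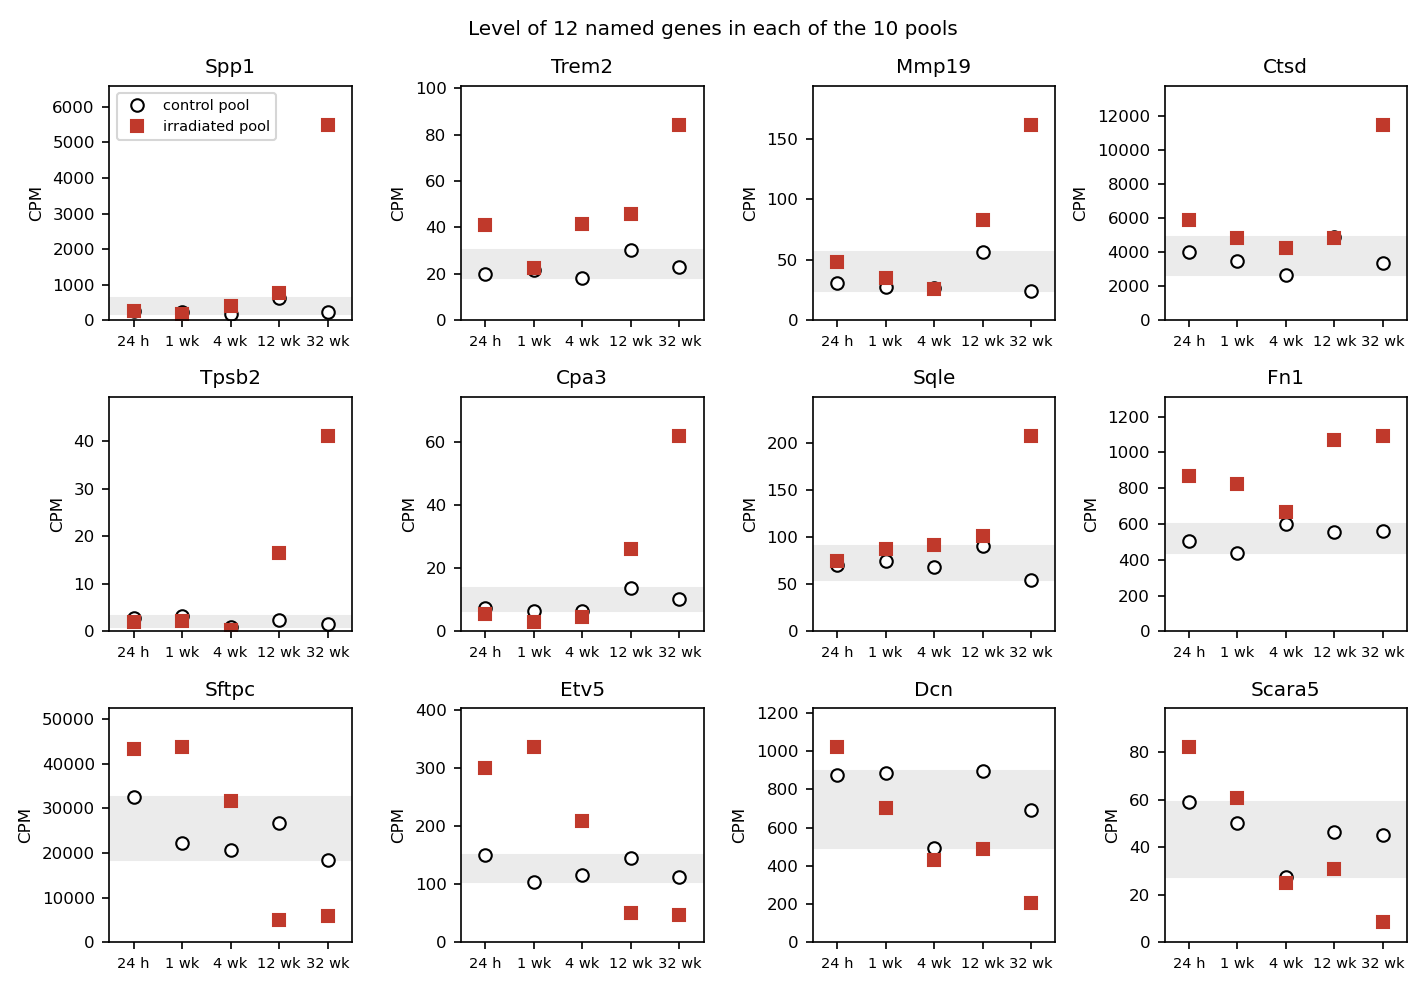
Each panel shows 1 gene in CPM (vertical, from 0) over the 5 times (horizontal), with open circles for control pools, red squares for irradiated pools and a grey band from the lowest to the highest control. In all 12 panels the irradiated 32-week square lies outside the band.

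Genes of alveolar type 2 cells were low. Sftpc (ENSMUSG00000022097.3, chromosome 14, 70520949 to 70524081, minus strand), the surfactant protein C gene that marks these cells, stood at 32454, 22298, 20600.2, 26787 and 18433 CPM in the 5 controls and at 5883 in the irradiated pool (log2 −2.04 ± 0.36, adjusted p = 0.0412), 3.13-fold below the 32-week control. Etv5, a transcription factor that maintains type 2 cells, stood at 150.1, 104, 115, 146 and 113 CPM in controls and 47.8 in the irradiated pool (log2 −1.39 ± 0.25, adjusted p = 0.0436). These 2 of 20 tested type 2 markers fell and 0 rose, while 17 lay below all controls and 0 above, with a median log2 fold of −0.77 against the 32-week control. Sftpb, which is needed for the surfactant film, stood at 108 CPM against 217 to 585 (adjusted p = 0.152), and Sftpa1 at 1679 against 3045 to 6228. The mean log2 CPM of the list was 9.12, 8.49, 8.56, 8.80 and 8.21 in the controls in order of time and 7.54 in the irradiated pool, so the 32-week control was itself the lowest of the controls. The irradiated 12-week pool lay at 7.40, close to the irradiated 32-week pool.

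Among the genes outside that list with the largest passing falls, Acoxl, an acyl-CoA oxidase-like gene, stood at 122, 86.8, 78.4, 84.7 and 68.3 CPM in controls and 13.1 in the irradiated pool (log2 −2.75 ± 0.34, adjusted p = 0.0146). Kcne2, a potassium channel subunit, fell to 2.22 from controls at 10.2 to 20.4 CPM, and Bex4 to 2.22 from controls at 11.8 to 25.1 CPM. All 3 were already low in the irradiated 12-week pool, at 17.4, 3.86 and 2.86 CPM. Calls lost without a control were those of Sftpc (24-hour 0.0553, 1-week 0.1, 12-week 0.0638), Etv5 (24-hour 0.0702, 1-week 0.0897, 12-week 0.0594, 32-week 0.0517), Acoxl (1-week 0.0642), Kcne2 (24-hour 0.0736, 1-week 0.1, 12-week 0.0579, 32-week 0.0583) and Bex4 (1-week 0.0897, 12-week 0.0564).

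Genes of airway epithelium were high. Of 21 tested markers of ciliated cells, which sweep mucus along the airway, 19 were above all controls and 0 below, and 17 were higher at an unadjusted p under 0.05, where 9.08% of all genes were. Only Ccdc40, needed to assemble ciliary dynein arms, passed, at 35.1, 28.6, 56.5, 34.3 and 41.6 CPM in controls and 126 in the irradiated pool (log2 1.69 ± 0.27, adjusted p = 0.033). Rsph4a, of the radial spoke head, stood at 81.9 against 15 to 35.3 CPM (adjusted p = 0.0789), and Foxj1, the master transcription factor of ciliated cells, lay within its control range at 34.6 against 10.8 to 41.8 CPM. Ccdc114, a dynein docking gene outside the list, rose to 40.5 from controls at 7.53 to 15.1 CPM (log2 1.85 ± 0.31, adjusted p = 0.0353).

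Of 19 club and secretory cell markers 0 passed, 14 lay above all controls and 0 below. Against the 32-week control 15 were higher and 4 lower, with a median log2 fold of 0.67. The 4 lower ones were Scgb3a1, Bpifa1, Muc5ac and Tff2, with Scgb3a1 at 269 against 350 CPM and Bpifa1 at 513 against 666. Cyp2f2, a cytochrome of club cells, stood at 2655 against 553 to 1480.4 CPM (adjusted p = 0.0953), and Scgb1a1 at 15053 against 2710.3 to 11277 CPM (adjusted p = 0.44). Airway levels varied widely between controls: the mean log2 CPM of ciliated markers was 4.45, 4.42, 5.50, 5.07 and 5.18 in the controls in order of time and 6.22 in the irradiated pool, and that of club markers 5.70, 5.59, 6.69, 6.18 and 6.57 and 7.28. The part of airway content in these and other levels was not tested.

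Markers of type 1 cells were mixed, with none of 16 passing, 3 (18.75%) above and 4 (25%) below all controls, against 24.8% and 24% of all genes. Ager, the receptor that marks them, stood at 98.4 against 172 to 322 CPM (adjusted p = 0.0835), while Igfbp2 was higher at 43.8 against 5.37 to 15.6 CPM (adjusted p = 0.0605). Krt8, a keratin of simple epithelium that marks the transitional state between type 2 and type 1 cells, rose to 287 from controls at 114 to 168 CPM (log2 1.13 ± 0.20, adjusted p = 0.0421) and was the only one of 13 transitional and basal markers to pass. Airway cells express Krt8 too. Leaving out a control ended the call of Ccdc40 (24-hour 0.0597, 1-week 0.0894, 12-week 0.0578), Ccdc114 (24-hour 0.0649, 1-week 0.0897, 12-week 0.0564) and Krt8 (24-hour 0.0736, 1-week 0.1, 12-week 0.0594, 32-week 0.0568).

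Several of the largest rises that passed belonged to none of the lists. Gp2, a glycoprotein of antigen-sampling and secretory epithelium, stood at 0.496, 2.52, 3.73, 3.72 and 5.97 CPM in controls and 46.4 in the irradiated pool (log2 3.82 ± 0.60, adjusted p = 0.0294). Zranb3, a DNA remodelling enzyme of stalled replication forks, stood at 3.72, 2.12, 2, 6.76 and 8.08 and 49.4 CPM (log2 3.45 ± 0.53, adjusted p = 0.0277). For both, the 32-week control was the highest control and the irradiated pool lay clear of it. Stra6l, a retinol-binding protein receptor, reached 20.3 CPM from controls at 2.6 to 6.84, and the DNA polymerase Poln, whose locus overlaps another gene, 10.04 CPM from controls at 0.414 to 1.84. Without the control named, the call was lost for Gp2 (1-week 0.0897, 12-week 0.0564), Zranb3 (24-hour 0.0551, 1-week 0.0785), Stra6l (24-hour 0.0736, 1-week 0.102, 32-week 0.0588) and Poln (24-hour 0.0551, 1-week 0.117, 12-week 0.0668, 32-week 0.0588).

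**Figure D3:**
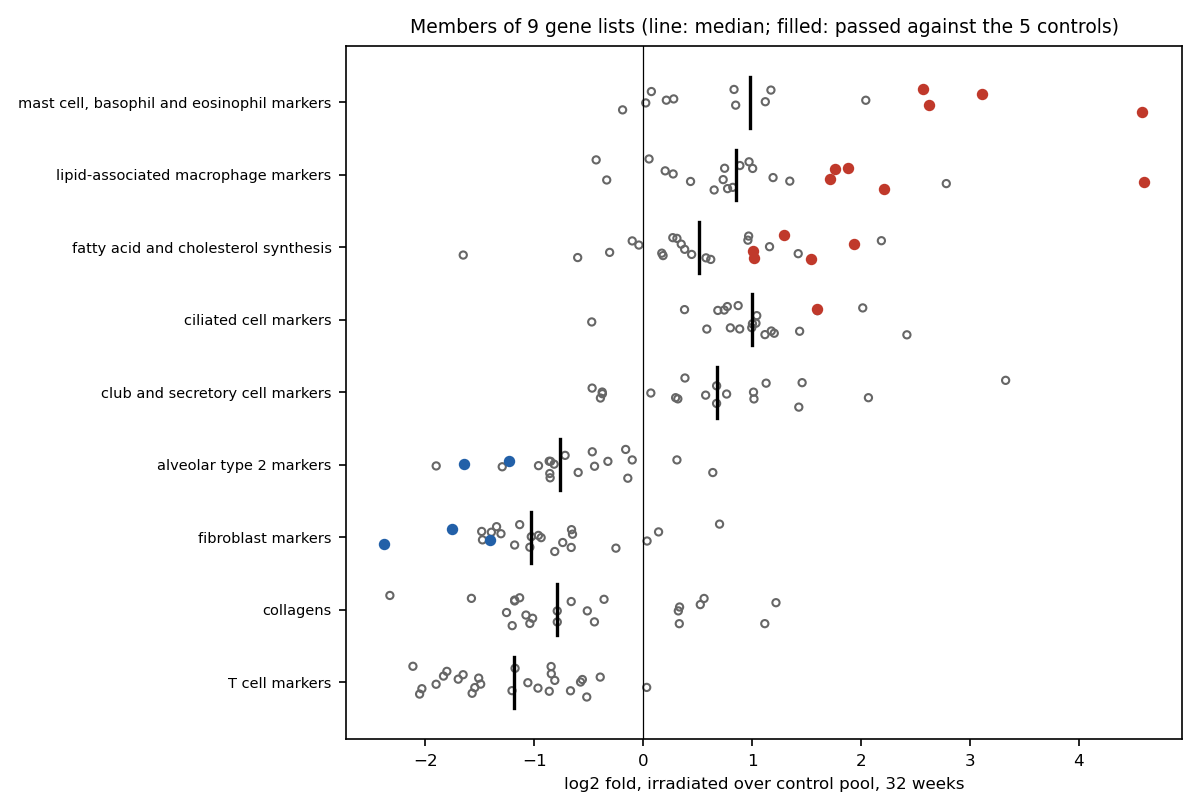
Each circle is 1 tested member of 1 of 9 gene lists (rows), placed by its log2 fold of the irradiated over the control pool at 32 weeks, filled where it passed against the 5 controls, and the black line is the median of the list. The medians run from 1.00 for ciliated markers to −1.19 for T cell markers.

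Fibroblast genes were low at 32 weeks, and the collagens with them did not rise. Of 23 tested fibroblast markers 3 fell and 0 rose, 16 lay below all controls and 1 above, and the median log2 fold against the 32-week control was −1.03. Dcn (ENSMUSG00000019929.13, chromosome 10, 97479609 to 97518143, plus strand), the collagen-binding proteoglycan decorin, stood at 877, 884, 492, 895 and 693 CPM in controls and 205 in the irradiated pool (log2 −1.91 ± 0.34, adjusted p = 0.0426). Scara5, a ferritin receptor of adventitial fibroblasts, stood at 59.2, 50.1, 27.6, 46.5 and 45.4 CPM in controls and 8.58 in the irradiated pool (log2 −2.41 ± 0.40, adjusted p = 0.0353). Mfap5, of elastic microfibrils, fell to 22.2 from controls at 59.3 to 115 CPM (log2 −1.93 ± 0.36, adjusted p = 0.047). The mean log2 CPM of the list was 6.41, 5.97, 6.33, 5.69 and 5.87 in the controls in order of time and 4.92 in the irradiated pool.

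Among falls that passed outside the fibroblast list, Abca8a, a lipid transporter, was steady in controls at 35.3 to 43.4 CPM and stood at 8.05 (log2 −2.31 ± 0.27, adjusted p = 0.0125). Fbln1, the matrix protein fibulin 1, fell to 26.4 from controls at 93.9 to 130.0 CPM (log2 −2.04 ± 0.26, adjusted p = 0.0146). Slit3, a secreted guidance protein, stood at 9.58 against 32.9 to 41.5 CPM, Gdf10, a TGF beta family ligand, at 4.06 against 13.6 to 19, and Srpx at 3.07 against 13 to 23.6. The homeobox genes Prrx1 and Meox2 fell to 0.537 and 1.15 CPM from controls at 3.82 to 5.74 and at 6.1 to 8.18. Adcy8, an adenylate cyclase gene, had 0 counts in the irradiated pool, against 1.3 to 2.87 CPM in controls.

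Collagen genes gave no call in 23 tested. Of these, 13 lay below all controls (56.5%, where 24% of all genes were) and 3 above (13%, where 24.8% were). Their median log2 fold against the 32-week control was −0.79. Col1a1, the main chain of fibrillar collagen I, stood at 307, 200.5, 242, 97.3 and 129.7 CPM in controls and 57.1 in the irradiated pool (adjusted p = 0.204). Col3a1 stood at 1275, 1152, 796, 504 and 411 CPM and 259.6 (adjusted p = 0.251). Both irradiated values lay under the lowest control, but controls differed among themselves by up to 307 against 97.3 CPM for Col1a1. Basement membrane collagen Col4a2 was above its controls at 127 against 54.3 to 119.6 CPM (adjusted p = 0.5).

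Among 38 matrix glycoproteins, proteoglycans and crosslinking genes, Spp1 and Fn1 rose and Dcn, Fbln1 and Mfap5 fell. Fn1, fibronectin, an early component of scar matrix, stood at 504, 436, 600.0, 556 and 559 CPM in controls and 1092 in the irradiated pool (log2 1.04 ± 0.19, adjusted p = 0.0421), beside 1072 CPM in the irradiated 12-week pool. In the TGF beta pathway, the main profibrotic signal, 0 of 34 genes passed, and the ligand Tgfb1 was at 53 CPM against 56.5 to 93.1 (adjusted p = 0.415). Smooth muscle and myofibroblast markers gave 0 calls in 17, with actin Acta2 at 23.6 against 23.2 to 47.6 CPM. The call was lost, without the control named, for Dcn (24-hour 0.0707, 1-week 0.1, 12-week 0.0594, 32-week 0.053), Scara5 (24-hour 0.0537, 1-week 0.0897, 12-week 0.0579), Mfap5 (24-hour 0.0553, 1-week 0.101, 12-week 0.0594), Fn1 (24-hour 0.077, 1-week 0.0897, 12-week 0.0594, 32-week 0.053), Slit3 (1-week 0.0672), Gdf10 (24-hour 0.0702, 1-week 0.0897, 12-week 0.0507), Srpx (24-hour 0.0697, 1-week 0.1, 12-week 0.0594), Prrx1 (24-hour 0.085, 1-week 0.1, 12-week 0.0594, 32-week 0.0588), Meox2 (24-hour 0.075, 1-week 0.0939, 12-week 0.0567, 32-week 0.0555) and Adcy8 (24-hour 0.0736, 1-week 0.0897, 12-week 0.0579, 32-week 0.0583).

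Antibody genes were high and T cell genes low. Of 129 tested immunoglobulin variable segments, which B cells choose from when they build an antibody, 5 passed higher and 0 lower, with 79 above all controls and 1 below. The mean log2 CPM of the segments was 1.10, 1.79, 1.44, 2.57 and 3.05 in the controls in order of time and 3.48 in the irradiated pool. The 32-week control was thus the highest control. Against it 89 segments were higher and 40 lower, with a median log2 fold of 0.32. This list was set up after the calls were seen, and its members named here were chosen after their values were seen. Ighv10-3 stood at 1.65, 1.79, 2.52, 2.53 and 2.66 CPM in controls and 74 in the irradiated pool (adjusted p = 5.59e-05), Igkv8-19 at 3.04 to 7.86 and 57.3, and Igkv8-27 at 3.83 to 8.45 and 49.6. Segments resemble each other, so counts can be split between them. Plasma cell markers gave 0 calls in 16, with 11 above all controls and 0 below. Jchain, which joins secreted antibody units, stood at 39.6, 91.6, 48.3, 295 and 452 CPM in controls and 1005 in the irradiated pool (adjusted p = 0.452), and the IgA heavy chain Igha at 42.1, 81.2, 52.4, 255 and 442 and 1013 (adjusted p = 0.415). The 32-week control was already the highest control for both.

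Of 26 T cell markers 0 passed, 18 lay below all controls and 1 above. Cd8a, the co-receptor of cytotoxic T cells, stood at 31.4, 34.3, 88.7, 27.5 and 104 CPM in controls and 25.2 in the irradiated pool (adjusted p = 0.572), and Cd3e at 46.3 against 54.8 to 105. The 32-week control had the highest T cell level of the controls, with mean log2 CPM of 4.84, 5.25, 5.61, 5.0 and 5.92 in order of time and 4.70 in the irradiated pool. It also had the highest immature lymphocyte level, at 3.27, 2.47, 5.29, 3.30 and 5.58 and 3.38, such as Satb1 at 290.1 CPM. Of 10 tested immature lymphocyte markers the irradiated pool was below all controls in 2 and above in 1, so a low fold against the 32-week control, with a median log2 of −2.38, lay mostly within the span of the controls. The part of these lymphocyte markers in the other results against this control was not tested. Natural killer markers had 12 of 19 below all controls and dendritic cell markers 12 of 18, and none passed. The mean log2 CPM of the natural killer list was 4.31, 4.45, 4.23, 4.40 and 3.63 in the controls in order of time and 3.50 in the irradiated pool. The 32-week control was thus the lowest control, and the median log2 fold against it was −0.17. For dendritic cell markers that median was −0.29.

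**Figure D4:**
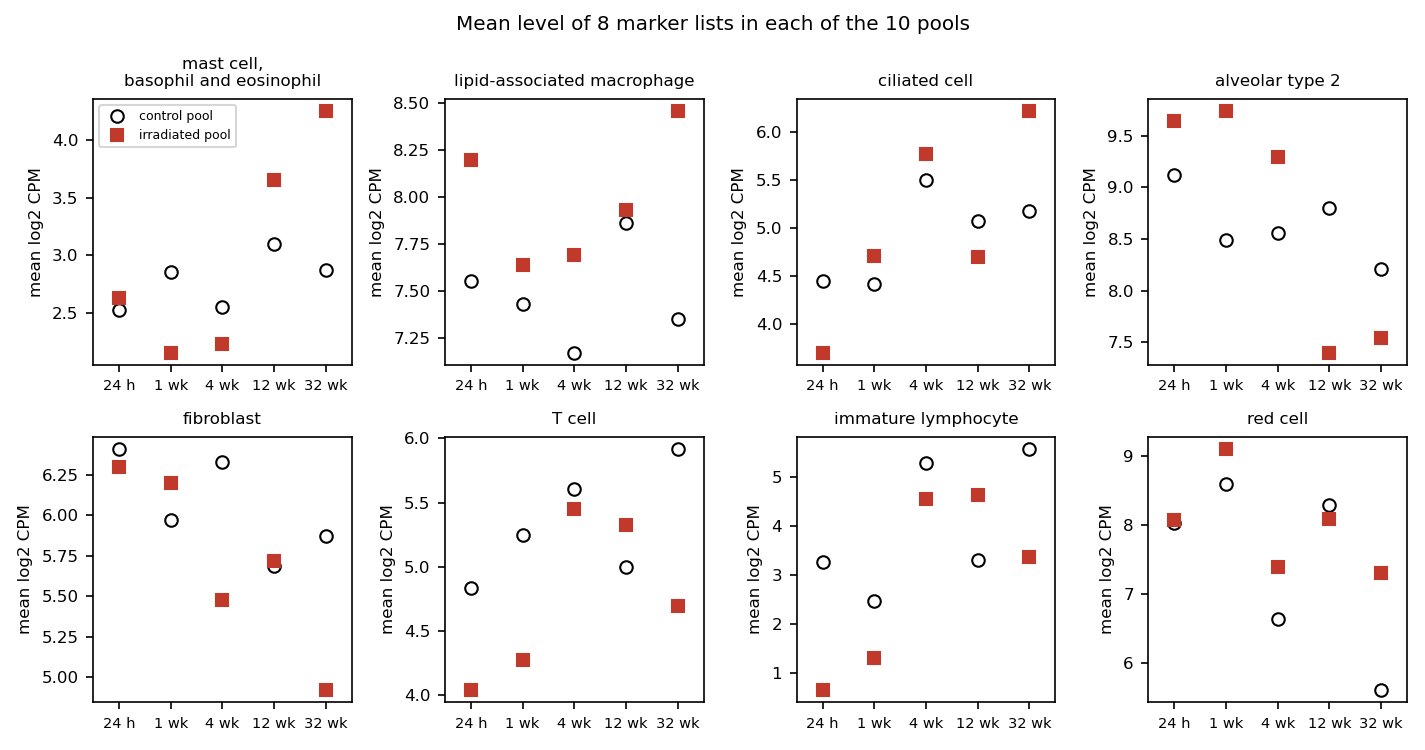
Each panel gives the mean log2 CPM of the tested members of 1 marker list (vertical) in every pool over the 5 times (horizontal), with open circles for control pools and red squares for irradiated pools. The 32-week control is the highest control for T cell (5.92) and immature lymphocyte (5.58) markers and the lowest for red cell markers (5.60).

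Genes of DNA damage and of the p53 response, which halts or kills damaged cells, gave 1 call at 32 weeks. Of 34 p53 targets 1 rose, Phlda3, an inhibitor of Akt signalling, to 76.2 from controls at 33 to 39.2 CPM (log2 1.06 ± 0.18, adjusted p = 0.0353). Cdkn1a, the p21 inhibitor of cell division, stood at 75.1, 73, 58.9, 48.1 and 67.8 CPM in controls and 82 in the irradiated pool (adjusted p = 0.525), while its fold over the control of the same time had been 6.9, 3.75, 3.14 and 2.27 at 24 hours and 1, 4 and 12 weeks. Mdm2, which degrades p53, was above all controls at 95.8 against 52.8 to 67 CPM (adjusted p = 0.117). Ccng1 stood at 124 against 75.2 to 117 CPM (adjusted p = 0.426) and the death receptor Eda2r at 3.14 against 1.1 to 2.86 (adjusted p = 0.503). DNA damage sensing and repair genes gave 0 calls in 30.

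Senescence genes gave 0 calls in 27. Cdkn2a, the p16 gene, was below the filter at 0.0919 CPM in the 32-week control and 0.46 in the irradiated pool. Gdf15, a stress cytokine, stood at 12.4 against 1.52 to 6.52 CPM (adjusted p = 0.135), and Il1a at 25 against 6.52 to 11.2 (adjusted p = 0.0662). Of 35 cell cycle genes 20 lay below all controls, 0 above and 0 passed, with Top2a at 46.8 against 53 to 106 CPM. The highest control for Top2a was the 32-week pool.

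Inflammatory mediators were unequal and largely short of the test. Of 35 chemokine and cytokine genes none passed. Above all controls were 8 (22.9%) and below 13 (37.1%), where 24.8% and 24% of all genes were. Ccl2, which attracts monocytes, lay within its controls at 5.82 against 3.39 to 6.42 CPM. Interferon-stimulated genes gave 0 calls in 24. Of 20 complement genes, Cfb, of the alternative pathway, rose to 256 from controls at 84.2 to 135 CPM (log2 1.24 ± 0.22, adjusted p = 0.0421) and Serping1, the inhibitor of C1, fell to 186 from controls at 391 to 437 CPM (log2 −1.16 ± 0.18, adjusted p = 0.0277). C4b stood at 374 against 207 to 264 CPM (adjusted p = 0.091) and has a near-identical copy, C4a. Acute phase and epithelial defence genes had 9 of 13 above all controls and 0 calls, with serum amyloid Saa3 at 68.8 against 8.95 to 41.7 CPM (adjusted p = 0.195). Calls lost without a control were those of Phlda3 (24-hour 0.0733, 1-week 0.0897, 12-week 0.0527), Cfb (24-hour 0.0736, 1-week 0.0897, 32-week 0.0579) and Serping1 (24-hour 0.0597, 1-week 0.0894).

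Antioxidant genes were high as a group without a single call. Of 24 tested genes of the Nrf2 programme, which protects against oxidants, 17 lay above all controls and 1 below, with a median log2 fold of 0.57 against the 32-week control. Nqo1, a quinone reductase, stood at 15.5 against 2.48 to 9.38 CPM (adjusted p = 0.178), Srxn1 at 51.3 against 16.7 to 32.9 (adjusted p = 0.115), and haem oxygenase Hmox1 at 99.1 against 39.96 to 62.8 (adjusted p = 0.107). Airway cells and macrophages express many of these genes too, and their part was not tested. The 32-week control was the lowest control for Nqo1 and Hmox1.

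Vessel markers gave 0 calls in 20 capillary and 22 large vessel and lymphatic genes. In the capillary list 2 members (10%) lay above all controls and 8 (40%) below. In the large vessel and lymphatic list 5 (22.7%) lay above and 7 (31.8%) below, where 24.8% and 24% of all genes were. The carbonic anhydrase Car4, of the aerocyte type of capillary cell, was above all controls at 549.8 against 170.1 to 290.2 CPM. Car4 is also on the alveolar macrophage list, and the part of each cell type was not tested. Glp1r was below all controls at 1.92 against 7.81 to 21.2 CPM. Vwf, von Willebrand factor, was above them at 340.2 against 111 to 190.5 CPM (adjusted p = 0.0624). Cytoplasmic ribosomal protein genes had 62 of 82 below all controls, 1 above and 0 calls, with a median log2 fold of −0.33. Red cell genes lay within the controls in 11 of 12, although Hbb-bs was 3.45-fold above the 32-week control, which held the least. Of 13 cardiac muscle genes Myh7 alone fell, to 2.76 from controls at 10.3 to 15.5 CPM (log2 −2.17 ± 0.40, adjusted p = 0.0436), and its reads may be shared with its close copy Myh6. Its call was lost in 3 cases, Myh7 (24-hour 0.0736, 1-week 0.1, 32-week 0.0555).

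**Figure D5:**
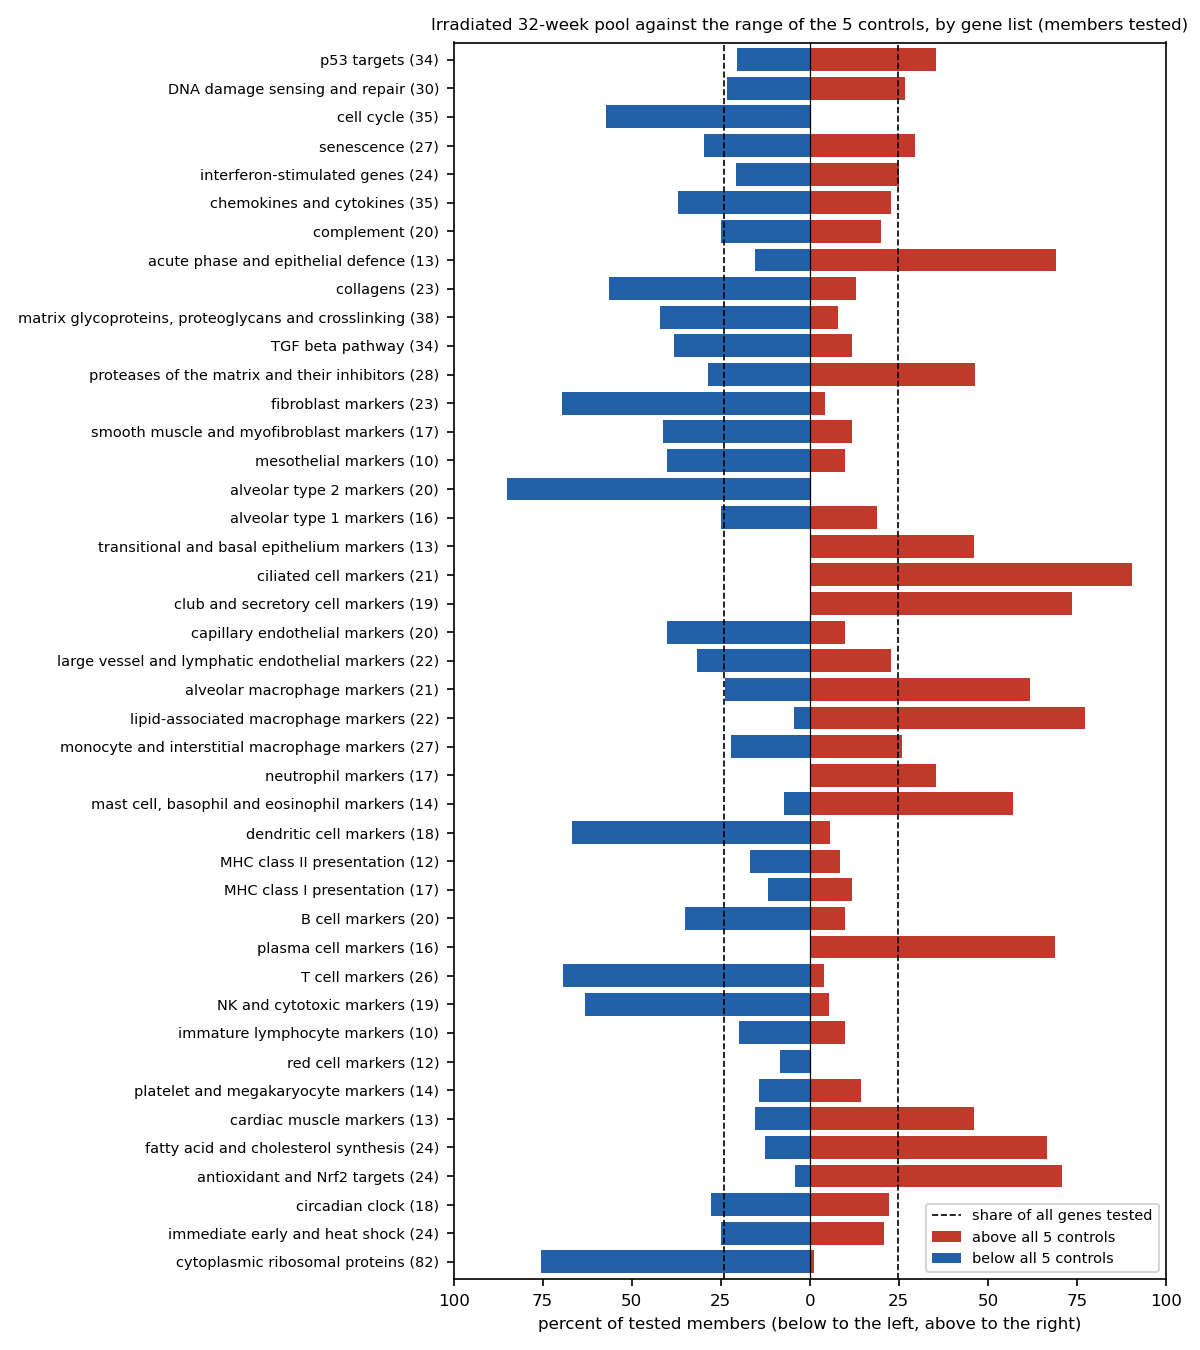
Bars give, for each list other than the lysosome and antibody segment lists with at least 10 tested members, the percent of members above all 5 controls (red, to the right) and below all 5 (blue, to the left) in the irradiated 32-week pool, and dashed lines mark the shares of all genes tested, 24.8% and 24%. Ciliated, lipid-associated macrophage and club lists reach farthest to the right, and type 2, ribosomal and fibroblast lists farthest to the left.

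Whether irradiation acted differently at 32 weeks than before was tested as the difference between the fold at 32 weeks and the mean fold of the other 4 times, each against its own control. With edgeR, 0 genes passed (0% in either direction, smallest adjusted p = 0.301), and 1064 were higher (6.81%) and 863 lower (5.52%) at an unadjusted p under 0.05. The 5 smallest p in the higher direction were those of Sqle, Hbb-bs, Mmp19, Hbb-bt and Akr1c14, a steroid dehydrogenase gene. Akr1c14 stood at 72.6 CPM in the irradiated 32-week pool and 18.6 in its control, and its fold was 0.767, 0.925, 0.94 and 0.867 at the earlier times in order. Those in the lower direction were Ephb6, Atp13a4, Kmt2d, Abca8a and Creb1. Ephb6, a receptor of the ephrin family, went from 27 to 1.38 CPM at 32 weeks, where its control was the highest of the 5, and Abca8a had folds of 1.29, 1.49, 0.886 and 0.841 before 32 weeks and lay 5.2-fold below its control then.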

How the data were processed

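RNA from suspensions of whole lung cells, in 10 pools of 3 mice each, was extracted with Qiagen RNeasy PLUS. It was sequenced from Clontech ultralow and Illumina NexteraXT libraries, per the labels' protocols. The authors deposited expected counts and FPKM values for 45786 genes in 10 libraries. Trimmomatic 0.32, STAR 2.4.2a, Cufflinks 2.0.2, Cuffdiff and GRCm38.p4 are named in the submitters' processing notes, which state neither the role of each tool nor an annotation. The deposited expected counts, with totals of 9983710 to 13509769, had been brought to a common scale: 78.8% to 81.2% of low values lay within 0.05 of whole multiples of a step proper to each library, from which the fragments per library were recovered. The protocols name no step that marks strand or molecules, so overlapping and antisense genes cannot be told apart, and limits set by 0 counts cover counting error only. Of the gene IDs, 45223 matched GENCODE M21 for symbols and coordinates (GRCm38) and 563 did not, which held at most 0.135% of a library.

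For testing, values of the count table were rounded to integers and passed to edgeR 4.0.16 in R 4.3.3 (robust quasi-likelihood test, TMM scaling, filterByExpr with a minimum count of 10 over all 10 libraries, Benjamini-Hochberg adjustment over 15625 genes, threshold 0.05, all tests 2-sided). Folds against the 32-week control use a prior count of 2, and ± marks the standard error of a log2 fold against the 5 controls. Nothing says that pools are replicates of one another, so p-values measure the spread between control pools of 5 times. Age and other differences between pools cannot be told apart in that spread. The irradiated pool of 32 weeks is set against the mean of controls of 5 times, so age and radiation cannot be told apart in the fold. On simulated data with 200 changed genes among 15625, the test against the 5 controls recovered 5.5% of 2-fold, 87% of 4-fold and 99.5% of 8-fold changes, and that against the 32-week control 0.5%, 53% and 98.5%. The changed genes of the simulation were drawn only from genes with higher mean counts. Every simulated gene had the same spread, and the simulated controls differed in depth but not by age. The shares recovered thus do not carry over to genes of low count or to controls that differ by age. The alternatives were other scalings (DESeq2 1.42.0 size factors, library totals), no filter, recovered fragments, DESeq2, limma 3.58.1 on log2(FPKM + 1) and log2(FPKM + 0.1), and leaving out each control.

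Of the 46 gene lists, the lysosome and antibody segment lists were added after the calls were seen, and all members and lists were chosen with earlier results of these data known. Lists share members, so their counts overlap. Dcn and Mfap5 are on the fibroblast and matrix glycoprotein lists, and Spp1 is on the lipid-associated macrophage and matrix glycoprotein lists. The rule named 14 genes always, the 12 largest folds among genes that passed in each direction, the 5 smallest p in each direction of the comparison with other times, and up to 4 members of each list outside the control range. It gave 195 genes. The other 83 genes that passed, and the members within the control range or lacking the test's threshold that the rule did not reach, were chosen after their values were seen. Some genes counted in the lists and calls are not reported here by name.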

Additional observations from a re-analysis of the deposited data

Results flagged for a closer look

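In 22 of the 278 genes described, 1 control lay far from the other 4 by Dixon's test (critical value 0.71), which chance gives in about 1 of 20 genes. The 12-week control was high for Spp1 (625.9 CPM), Mmp19 (56.84), Ctsk (387.5), Mmp12 (160.8), Nt5e (32.01), Stra6l (6.841) and Ces2e (5.321), and low for Loxl1 (18.58). The first 4 of these are genes of osteopontin, proteases and matrix digestion, for all of which the irradiated 32-week pool was higher still. The 4-week control was high for Cyb561 (110.2 CPM), Cfap300 (9.809), Chchd6 (39.76), Gabrp (25.87) and Hp (459.7) and low for H2-DMb1 (203.6). The 32-week control was high for the antibody gene Ighg2c (177.6 CPM) and the chemokine gene Cxcl10 (7.533), and low for Adh1 (145.2) and the interferon-stimulated gene Ifi44 (1.837). The 1-week control was low for Gprc5c (14.81 CPM) and high for Siglech (34.75), a marker of plasmacytoid dendritic cells. The 24-hour control was low for the clotting factor gene F5 (9.018 CPM) and high for Rspo1 (13.49), a mesothelial marker.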

How the results depend on the processing

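Against the 5 controls, 126 genes passed. The count was 121 with DESeq2 size factors in edgeR, 109 with limma on log2(FPKM + 0.1) and 100 on recovered fragments. It moved to 65 (36 higher, 29 lower) with library totals, 378 (278 and 100) without the filter, 816 (506 and 310) with DESeq2, 381 (341 and 40) with limma on log2(FPKM + 1) and 932 (913 and 19) with limma on log2(FPKM + 1) without the filter. Leaving out 1 control gave 8 to 300. Against the 32-week control, the count of 0 became 43 without the filter, 355 with DESeq2, 1 with limma on log2(FPKM + 1), 2 with limma on log2(FPKM + 0.1), 2079 with limma without the filter and 0 to 32 with a control left out. The highest were 32 without the 4-week control and 4 without the 12-week control. For the 32-week control against the other 4, it became 7 without the filter and 0 to 23 with a control left out. For the difference from the other times it was 0 in every alternative run, including the fit with no replicate block (0), in which time is not a block. No paired analysis was possible because only 1 irradiated pool enters the comparisons against controls. The cause of these shifts was not tested.

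Of the 278 genes, 126 had a call to lose. Of these 126, 6 lost it with DESeq2 size factors, 62 with library totals, 26 on recovered fragments and 54 with limma on log2(FPKM + 0.1). All 126 lost it against the 32-week control alone. Among the genes given above, those lost with library totals were Adcy8, Ccdc114, Ccdc40, Fn1, Gp2, Gpnmb, Kcne2, Krt8, Mcpt4, Meox2, Msr1, Mvd, Myh7, Phlda3, Poln, Prrx1, Stra6l and Zranb3. On recovered fragments they were Adcy8, Gpnmb, Kcne2, Msr1, Mvd and Poln. Signs turned for Psmb8 (log2 0.0638, 0.064 and 0.0638) and Psmb9 (0.0179, 0.0182 and 0.0179) with limma on log2(FPKM + 1), log2(FPKM + 0.1) and log2(FPKM + 1) without the filter, for Rspo1 (0.000478) with limma on log2(FPKM + 0.1), and for Hbb-bs (1.79) and Hbb-bt (1.71) against the 32-week control. None of these 5 passed. Depth limits genes below the filter and segments of a few counts.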

Other observations

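The genes in the first 3 paragraphs passed against the 5 controls, lie outside the fixed lists and were chosen after their values were seen, so no theme is drawn from them. Cfap65, of the sperm and airway cilium, stood at 48.5 CPM against 7.98 to 17.9 in controls (adjusted p = 0.0491), and Ccdc103, a dynein arm attachment gene, at 17.6 against 3.09 to 6.34. Cfap300 stood at 24.3 against 5.13 to 9.81 CPM and Ccdc181 at 109.6 against 31 to 49.9. The airway gene Agr3 reached 32.4 against 4.96 to 11 CPM, Prom1, a marker of apical protrusions, 224 against 49 to 85.5, and Cyp2s1, a cytochrome of airway epithelium, 608 against 133 to 274. In all 7 the irradiated pool was above every control. Leaving out a control ended the call of Cfap65 (24-hour 0.077, 1-week 0.0897, 12-week 0.0669), Ccdc103 (24-hour 0.0852, 1-week 0.106, 12-week 0.0594, 32-week 0.0694), Cfap300 (24-hour 0.076, 1-week 0.1, 12-week 0.0594, 32-week 0.0588), Ccdc181 (24-hour 0.0573, 1-week 0.0672, 12-week 0.0515), Agr3 (24-hour 0.0733, 1-week 0.098, 12-week 0.0594, 32-week 0.059), Prom1 (1-week 0.0672) and Cyp2s1 (24-hour 0.0599, 1-week 0.0894, 12-week 0.0594, 32-week 0.0538), at the adjusted p given.

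Ch25h, which makes 25-hydroxycholesterol, stood at 30.4 CPM against 7.38 to 12.8 in controls (adjusted p = 0.0426), and Kynu, a hydrolase of tryptophan breakdown, at 51.4 against 21.8 to 26.4 (adjusted p = 0.0491). Alas1, the first enzyme of haem synthesis, stood at 664 against 253 to 312 CPM (adjusted p = 0.0178), and Slc2a1, a glucose carrier, at 104 against 45.7 to 60.2 (adjusted p = 0.047). Tgm2, a transglutaminase that crosslinks matrix proteins, reached 515 CPM against 258 to 304 (adjusted p = 0.0403), and Nt5e, the CD73 enzyme that forms adenosine, 70.4 against 22 to 32 (adjusted p = 0.0256). Procr, the protein C receptor of endothelium, stood at 25.8 against 5.13 to 7.86 CPM and Nrp2, a co-receptor for vascular growth factors, at 98.8 against 27 to 40.8. These calls were lost, by control left out, for Ch25h (24-hour 0.0736, 1-week 0.1, 32-week 0.0556), Kynu (24-hour 0.085, 1-week 0.1, 12-week 0.0594, 32-week 0.059), Alas1 (1-week 0.0672), Slc2a1 (24-hour 0.0788, 1-week 0.105, 12-week 0.0594, 32-week 0.0592), Tgm2 (24-hour 0.0649, 1-week 0.1, 12-week 0.0579, 32-week 0.0517), Nt5e (24-hour 0.0537, 1-week 0.0894), Procr (1-week 0.0736) and Nrp2 (1-week 0.0672).

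Among genes that fell, Serpinf1, the pigment epithelium-derived factor, stood at 23.6 CPM against 63.3 to 115 in controls (adjusted p = 0.0495), Igfbp4, a binder of insulin-like growth factors, at 114 against 236 to 335 (adjusted p = 0.0451), and Pcolce2, an enhancer of procollagen cleavage, at 65.3 against 152 to 216 (adjusted p = 0.0412). The collagen receptor kinase Ddr2 stood at 20.4 against 46.7 to 62.7 CPM, Abi3bp at 8.97 against 27.1 to 36.6, Cygb, cytoglobin, at 6.51 against 24 to 32.3, and Sparcl1 at 103 against 196 to 239.5. Their calls were lost, by control left out, for Serpinf1 (24-hour 0.0736, 1-week 0.1, 12-week 0.0722), Igfbp4 (24-hour 0.0735, 1-week 0.098, 12-week 0.0579, 32-week 0.0576), Pcolce2 (24-hour 0.0573, 1-week 0.0897, 12-week 0.0528), Ddr2 (24-hour 0.0735, 1-week 0.1, 12-week 0.0564, 32-week 0.0517), Abi3bp (24-hour 0.0537, 1-week 0.0672), Cygb (1-week 0.0758) and Sparcl1 (24-hour 0.0736, 1-week 0.0897, 12-week 0.0594, 32-week 0.0555).

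Among 30161 genes left out by the filter, 12 had at least 30 counts in the irradiated 32-week pool and at least 4 times the highest control, and 2 of these were immunoglobulin segments, while 4 genes lay as far below the lowest control. Ighv5-15 had 220 counts against at most 12 in controls, and Moxd1, a monooxygenase-like gene, 117 against 0 in the 32-week control and at most 14 in the others. Cdhr1, a photoreceptor cadherin, had 85 counts against 19 in the 32-week control and at most 21, Ces1g, a carboxylesterase, 66 against at most 13, and Btnl6, a butyrophilin-like gene, 53 against at most 5. Slc38a11 had 52 counts against at most 10, Catsperd 52 against at most 9, Kng2 42 against at most 7, Adig 35 against at most 8 and Mapk8ip2 32 against at most 2. These genes were not tested.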
